A study of Homo sapiens with 2 samples.

Results

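The genes described here are 10 genes of metal handling in HEK293T cells, taken by symbol from the 60664 genes that both count files list. They are 8 metallothionein genes (MT2A, MT1X, MT1E, MT1F, MT1G, MT1M, MT1H and MT3), the zinc-sensing transcription factor gene MTF1 and the zinc exporter gene SLC30A1. All 10 were found, each with 1 Ensembl identifier. They were chosen by name and not by a rule on their values, but with earlier results of these data known. RNA from HEK293T, an established human line derived from embryonic kidney cells and carrying the SV40 large T antigen, was measured in 2 RNA-seq libraries. The labels give 1 group, wild type and untreated, with replicates 1 and 2, so there is no contrast between conditions. The study's title places them beside a method for mapping R-loops, which are hybrids of RNA with DNA. The cell line entry of replicate 2 departs from its own title, which reads HEK293T, and the title was followed. The labels do not state whether separate cultures were used, and the spread between the replicates may thus be technical.

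Metallothioneins are small, cysteine-rich proteins that bind zinc, copper and cadmium and buffer free zinc in the cytosol. When free zinc rises, MTF1 binds metal response elements in the promoters of metallothionein genes and of SLC30A1, whose product exports zinc across the plasma membrane. In human the family lies in a cluster on chromosome 16, where MT2A and several MT1 genes are widely expressed while MT3 is best known from brain and MT4 from squamous epithelium.

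The coding sequences of the family are close to each other, which bears on how reads can be assigned to its members. They are shown for the 3 metallothionein genes with counts (MT2A, MT1X and MT1F) and for 2 without (MT1E and MT1G), 5′ to 3′ from the start codon to the stop codon, as spliced GENCODE 29 transcripts on GRCh38. Capitals mark the bases that differ from MT2A.
MT2A: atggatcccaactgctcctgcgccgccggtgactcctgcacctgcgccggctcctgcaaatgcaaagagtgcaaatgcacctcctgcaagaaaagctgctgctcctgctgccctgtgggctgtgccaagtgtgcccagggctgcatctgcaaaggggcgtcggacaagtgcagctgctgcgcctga
MT1X: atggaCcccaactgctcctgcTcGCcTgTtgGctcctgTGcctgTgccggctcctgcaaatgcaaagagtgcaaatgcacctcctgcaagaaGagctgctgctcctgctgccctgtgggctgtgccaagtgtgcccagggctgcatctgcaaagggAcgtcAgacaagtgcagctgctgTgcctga
MT1F: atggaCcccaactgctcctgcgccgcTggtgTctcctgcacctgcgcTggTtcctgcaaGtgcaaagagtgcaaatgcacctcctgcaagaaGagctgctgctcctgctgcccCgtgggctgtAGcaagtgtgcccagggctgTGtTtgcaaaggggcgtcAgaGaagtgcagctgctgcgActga
MT1E: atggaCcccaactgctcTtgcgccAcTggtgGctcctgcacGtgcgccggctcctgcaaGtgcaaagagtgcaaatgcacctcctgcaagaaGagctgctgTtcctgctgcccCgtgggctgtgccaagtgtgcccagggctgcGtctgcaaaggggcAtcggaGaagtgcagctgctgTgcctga
MT1G: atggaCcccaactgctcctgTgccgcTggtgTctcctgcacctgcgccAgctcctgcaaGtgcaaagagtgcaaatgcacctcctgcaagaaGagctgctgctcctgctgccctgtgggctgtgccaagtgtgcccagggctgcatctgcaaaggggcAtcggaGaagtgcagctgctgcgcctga
Each has 186 bases, of which 20 codons are tgc or tgt, the codons for cysteine. MT1G differs from MT2A at 9 bases, MT1X and MT1E at 14, and MT1F at 16. The pair of MT1X and MT1F differs at 21. Sharing was also counted over whole transcripts. Of the 50-base windows of MT2A transcripts, 3.02% occur in transcripts of another gene, on either strand, against 1.22% for MT1F, 18.3% for MT1X, 7.10% for MT1E and 16.5% for MT1G. For MT1X only 3.64% occur in another metallothionein gene, while for MT2A, MT1F, MT1E and MT1G the whole share does. No 100-base window of MT2A, MT1F, MT1E, MT1G, MT1M or MT3 occurs in another gene. For MT1X the share at 100 bases is 11.3%, and no such window lies in another metallothionein gene. The sources used here give neither the read length nor the treatment of reads with several alignments.

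The window upstream of the start site is shown for 4 genes, because it holds the motif that MTF1 is known to bind. RefSeq promoter sequences on GRCh38.p14 matched 5 of the 10 members: MT2A, MT1X, MT1H, MTF1 and SLC30A1. The windows are the 250 bases before the start, 5′ to 3′ on the gene's strand. Capitals mark matches to the core of the metal response element, TGCACNC or TGCGCNC, on either strand, and to TATAAA. No match printed here overlaps another.
MT2A (chr16:56608334-56608583, plus strand): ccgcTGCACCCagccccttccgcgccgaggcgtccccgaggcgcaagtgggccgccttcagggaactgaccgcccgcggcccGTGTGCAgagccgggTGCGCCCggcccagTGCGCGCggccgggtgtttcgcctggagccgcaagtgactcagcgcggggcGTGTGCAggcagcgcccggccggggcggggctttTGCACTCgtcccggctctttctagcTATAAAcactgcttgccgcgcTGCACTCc
MT1X (chr16:56682220-56682469, plus strand): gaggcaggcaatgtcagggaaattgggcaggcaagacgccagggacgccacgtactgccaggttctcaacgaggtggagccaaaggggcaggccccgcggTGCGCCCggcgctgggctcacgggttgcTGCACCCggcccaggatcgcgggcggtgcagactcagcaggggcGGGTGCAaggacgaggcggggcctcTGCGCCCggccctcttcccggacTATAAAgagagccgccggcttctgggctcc
MT1H (chr16:56669564-56669813, plus strand): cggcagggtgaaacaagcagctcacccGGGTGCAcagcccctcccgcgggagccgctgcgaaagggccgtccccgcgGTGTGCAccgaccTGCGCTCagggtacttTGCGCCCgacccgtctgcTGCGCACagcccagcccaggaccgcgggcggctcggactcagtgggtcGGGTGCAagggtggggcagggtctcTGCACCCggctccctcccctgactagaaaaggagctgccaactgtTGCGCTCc
SLC30A1 (chr1:211579162-211579411, minus strand): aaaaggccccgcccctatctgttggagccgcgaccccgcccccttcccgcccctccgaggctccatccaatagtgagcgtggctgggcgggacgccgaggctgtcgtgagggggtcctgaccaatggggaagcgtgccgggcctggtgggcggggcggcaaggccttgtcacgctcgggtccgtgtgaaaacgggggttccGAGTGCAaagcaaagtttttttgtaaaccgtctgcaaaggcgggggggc
The MT2A window holds 7 element cores, 5 on its own strand and 2 on the opposite strand, and the MT1X window holds 4. The MT1H window holds 8, and the SLC30A1 window 1, while none was found in that of MTF1. Of 35116 windows of the same length, 24.8% hold at least 1 core, 0.370% at least 4 and 0.0313% at least 7. TATAAA, found in 10.7% of windows, lies from 29 to 24 bases before the start of MT2A and from 30 to 25 bases before that of MT1X. It has no match in the MT1H, MTF1 or SLC30A1 windows. These matches describe letters and not occupied sites.

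Replicate 1 held 18011638 assigned counts and replicate 2 held 18575058. Levels are given as CPM, the count scaled by the library total, or as TPM, which is also scaled by exon length. A count of 0 allows up to 3 counts, which is 0.167 CPM in replicate 1 and 0.162 CPM in replicate 2. Intervals and floors here cover counting error only, since reads lacking molecular identifiers need not be independent molecules. Each ± is an SD across both replicates (n = 2). Of 6 genes used as a check of the HEK293T label 5 were detected, with UCHL1 the highest at 334 ± 5.81 TPM, and PAX2 was not, at 23 and 15 counts. Genes of other cell types that could carry metallothionein were at or near 0 in part. The hepatocyte genes ALB, TTR and SERPINA1 each had 1 count in replicate 1 and 0 in replicate 2, and APOA1 had 24 and 23. COL1A2, DCN and CD3D had 0 counts in both libraries, while the fibroblast gene COL1A1 (104 and 111 counts), the proximal tubule gene LRP2 (45 and 63) and the astrocyte genes GFAP (84 and 117 counts) and SLC1A3 (177 and 213) were counted in both. Summed over each list, the counts in replicates 1 and 2 were 27 and 23 for 4 hepatocyte genes, 54 and 75 for 4 proximal tubule genes, 273 and 342 for 3 astrocyte genes, 104 and 111 for 3 fibroblast genes and 0 and 39 for 3 blood genes. In bulk RNA, fewer cells that express a gene and less of its RNA per cell cannot be told apart.

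Of the 10 genes, 5 were detected, meaning 1 CPM or more in both libraries, and 5 had no count in either. The detected genes were MT2A, MT1X, MT1F, MTF1 and SLC30A1. The same rule took 27.7% of all genes and 65.9% of protein-coding genes. The genes without a count were MT1E, MT1G, MT1M, MT1H and MT3, a state shared by 15.4% of protein-coding genes and 50.5% of all genes. Together the 10 genes took 834 counts (0.00463% of the library) in replicate 1 and 645 counts (0.00347%) in replicate 2. Their exact 95% binomial intervals, 0.00432% to 0.00496% and 0.00321% to 0.00375%, did not overlap. This was not a fall of the whole set. SLC30A1 went from 311 to 135 counts and MTF1 from 108 to 80. The 8 metallothionein genes together had 415 and 430 counts, with overlapping intervals. The median of the 10 on log2(TPM + 0.1) was -1.43, against 1.57 for all protein-coding genes. That median falls in the gap between the genes at 0 and the lowest detected one, so it is the level of no gene.

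**Figure D1:**
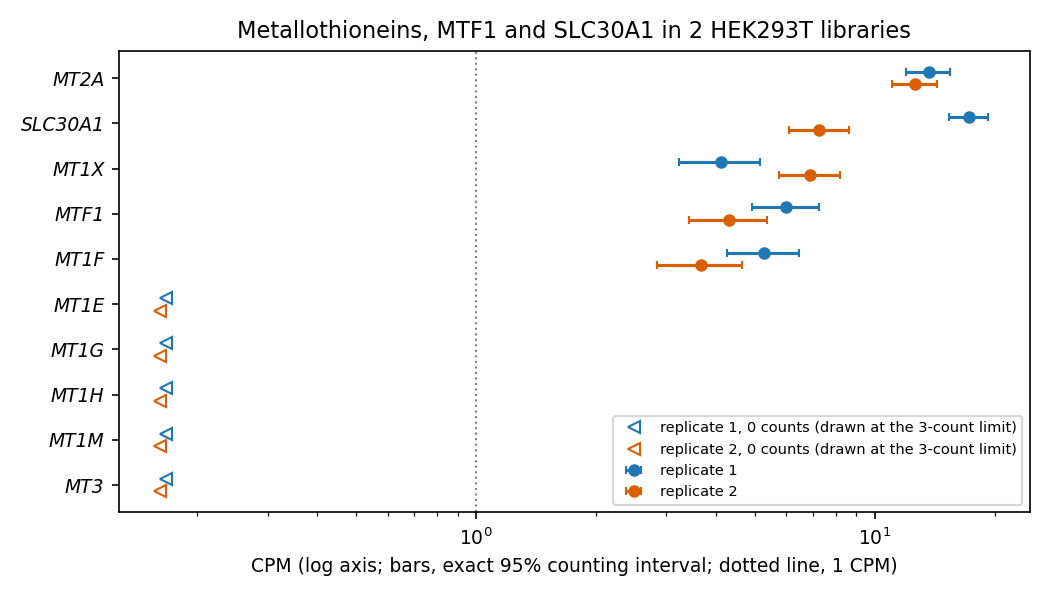
Level of each of the 10 genes in CPM (log axis), replicate 1 in blue and replicate 2 in orange, with exact 95% counting intervals; open triangles are genes with 0 counts, drawn at the 3-count limit. The 5 detected genes all lie above the dotted line at 1 CPM, and only SLC30A1 and MT1X have intervals that do not overlap between the libraries.

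MT2A, usually the most abundant metallothionein mRNA in human cells, led the family. It lies on the plus strand at chr16:56608584-56609497 (ENSG00000125148) and had 246 counts in replicate 1 and 234 in replicate 2. These are 13.7 and 12.6 CPM, or 30.9 and 27.3 TPM, with a mean of 29.1 ± 2.55 TPM. Both libraries were close, and 14.4% of protein-coding genes had a higher mean TPM. MT2A lay above every other gene of the 10 in each library on the TPM scale, and its range did not overlap that of MT1X, the next in order.

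MT1X, an MT1 gene on the plus strand at chr16:56682470-56684196 (ENSG00000187193), had 74 and 128 counts. On the level scale this was 4.11 and 6.89 CPM, or 4.91 and 7.89 TPM (mean 6.40 ± 2.11). Its value is uncertain, because 321 of its exonic bases (18.6%) are shared with ENSG00000259827, a non-coding gene on the same strand. Overlap with MT1X covers 58.3% of the exonic length of that non-coding gene, and all overlaps together cover 100%. It had 68 counts in replicate 1 and 121 in replicate 2. These counts need not be independent of those of MT1X, so they are not read as a second gene with a higher level in replicate 2. How many reads belong to each gene, and whether the same reads were counted for both, was not tested. MT1F, on the plus strand at chr16:56657731-56660698 (ENSG00000198417), shares no exonic base with another gene. It had 95 and 68 counts, 5.27 and 3.66 CPM, or 5.88 and 3.91 TPM (mean 4.89 ± 1.39). The ranges of MT1X and MT1F overlapped, so their order is not set by these libraries.

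The levels per length depend on the length used. The deposited lengths, 1 per gene, are 914 bases for MT2A, 1727 for MT1X and 1852 for MT1F. The longest protein-coding transcripts in GENCODE 29 have 786, 538 and 690 bases. With these, MT2A had 23.1 ± 1.90 TPM, MT1X 14.1 ± 4.70 and MT1F 8.97 ± 2.51. MT2A remained the highest in both libraries, and MT1X and MT1F still overlapped.

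The members without a count were MT1E, MT1G, MT1M and MT1H, which encode further MT1 isoforms, and MT3, the isoform known as growth inhibitory factor in brain. Set against 3 counts in a library, the bound on how far MT2A stood above them per length depends on the length used. In replicate 1 and with the deposited lengths it was 94.4-fold for MT1E, 67.4-fold for MT1G, 45.8-fold for MT1M, 64.9-fold for MT1H and 151-fold for MT3. With the longest protein-coding transcripts these became 76.1, 65.5, 86.5, 72.7 and 60.4. The lowest values over both lengths and both libraries were 72.3-fold for MT1E, 62.3-fold for MT1G and 43.6-fold for MT1M. For MT1H and MT3 they were 61.7-fold and 57.5-fold. All of these use the measured MT2A count and leave out its own counting error, with which the bounds would be lower. MT1H had no count although its upstream window holds 8 element cores, more than the window of MT2A.

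The pattern held along the whole cluster. Its 16 metallothionein genes and pseudogenes span 119 kb, at chr16:56565073-56684196, and 15 of them lie on the plus strand. Of the 16, 12 had no count in either library, 3 were detected and MT1B, overlapped by other genes over 30.5% of its exonic length, had 1 count in replicate 1 alone. MT1A, MT4 and the pseudogenes MT1L, MT1JP, MT1DP, MT1CP and MT1IP were among those at 0. The upstream windows of MT4 and MT1B hold TATAAA and 3 element cores each. That is fewer cores than in MT2A and MT1X, and also fewer than in MT1H, which had no count. No window was matched for MT1F, MT1E, MT1G, MT1M or MT3. Pseudogenes elsewhere in the genome took few counts. MT1P1 on chromosome 9 had 2 and 2 counts, MT1XP1 on chromosome 1 had 1 and 0, and MT2P1 and MT1P3 had none.

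**Figure D2:**
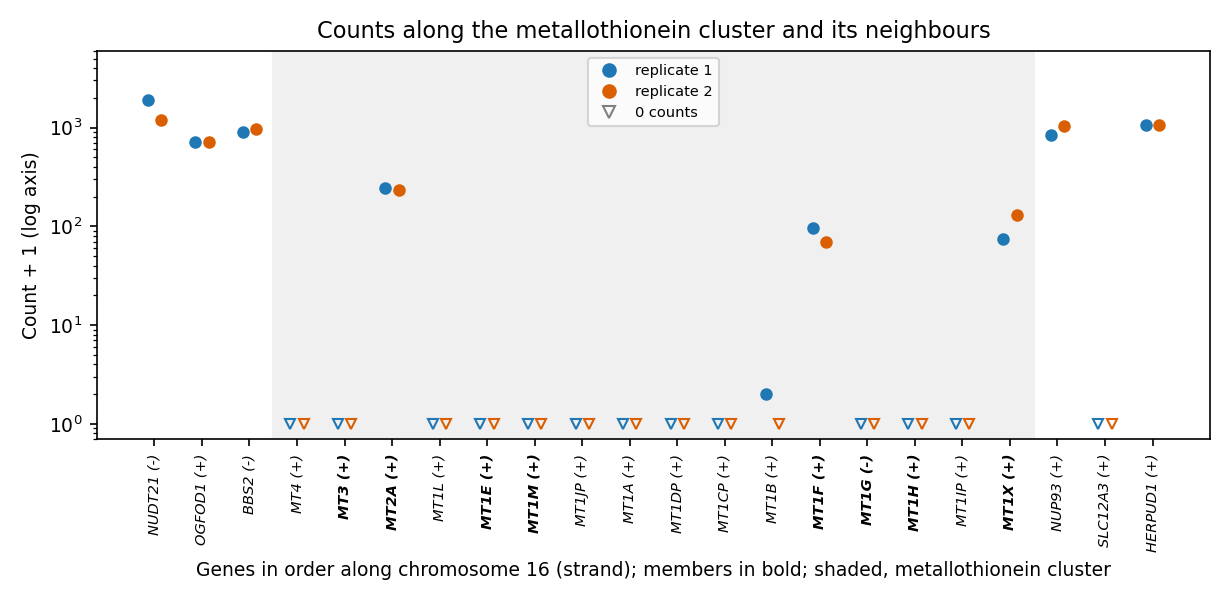
Count plus 1 (log axis) for the 16 metallothionein genes and pseudogenes (shaded) and the nearest 3 protein-coding genes on each side, in their order along chromosome 16, replicate 1 in blue and replicate 2 in orange; open triangles mark 0 counts. MT2A, MT1F and MT1X stand out from a row of genes at or near 0, between 6 neighbours of which SLC12A3 alone is at 0.

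Of the 3 nearest protein-coding genes on each side of the cluster, 5 had counts in both libraries. BBS2, a subunit of the ciliary BBSome that overlaps MT4, had 894 and 972 counts. OGFOD1, a ribosomal protein hydroxylase gene, had 717 and 713, and NUDT21, a cleavage factor subunit gene, had 1916 and 1198. The value of NUDT21 is uncertain, since other genes overlap 45.9% of its exonic bases. On the other side the nuclear pore gene NUP93 had 846 and 1033 counts and HERPUD1, of endoplasmic reticulum protein degradation, had 1058 and 1065. SLC12A3, the thiazide-sensitive cotransporter gene of the distal tubule, had 0 in both. Each neighbour with counts exceeded MT2A in both libraries on the count scale, which is not corrected for length.

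MTF1, the zinc finger factor that switches on metallothionein genes, lies on the minus strand at chr1:37809574-37859592 (ENSG00000188786). It had 108 and 80 counts, or 1.55 and 1.07 TPM (mean 1.31 ± 0.342). This was the lowest level per length among the 5 detected genes, and its range did not overlap that of SLC30A1. SLC30A1, on the minus strand at chr1:211571568-211579161 (ENSG00000170385), had 311 counts in replicate 1 and 135 in replicate 2. These are 17.3 and 7.27 CPM, or 6.05 and 2.44 TPM (mean 4.24 ± 2.55). Its range overlapped that of MT1F with the deposited lengths and lay below it with the longest coding transcripts, at 3.12 ± 1.86 TPM.

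The difference between the libraries was taken as the log2 ratio of replicate 2 to replicate 1, scaled with edgeR's TMM factors after adding a prior count of 2. With 1 library on each side there is no p-value. Of the 14704 genes whose mean count reached 50, 1.92% were lower by 1 log2 or more in replicate 2 and 0.143% were higher. Of the 10 genes 5 reached that mean count, those detected above, so no count over them speaks for all 10. SLC30A1 was lower by that much, with a ratio of -1.21 (95% counting interval -1.52 to -0.92). MT1F had -0.48 (-0.97 to -0.03), MTF1 -0.44 (-0.88 to -0.02) and MT2A -0.09 (-0.35 to 0.18). MT1X went the other way, at 0.76 (0.35 to 1.21). The median of the 5 was -0.44, against 0.00 over all 14704 genes. The biological coefficient of variation that edgeR fitted at these counts was 17.6% to 19.6%.

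The summed metallothionein counts were close, at 415 in replicate 1 and 430 in replicate 2. In CPM the sums were 23.0 and 23.1. Within them MT2A took 59.3% in replicate 1 (exact 95% binomial interval 54.4% to 64.0%) and 54.4% in replicate 2 (49.6% to 59.2%). The share of MT1X was 17.8% (14.3% to 21.9%) and then 29.8% (25.5% to 34.3%). That of MT1F was 22.9% (18.9% to 27.2%) and then 15.8% (12.5% to 19.6%). Only the intervals of MT1X did not overlap, and its counts carry the overlap with ENSG00000259827 described above.

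**Figure D3:**
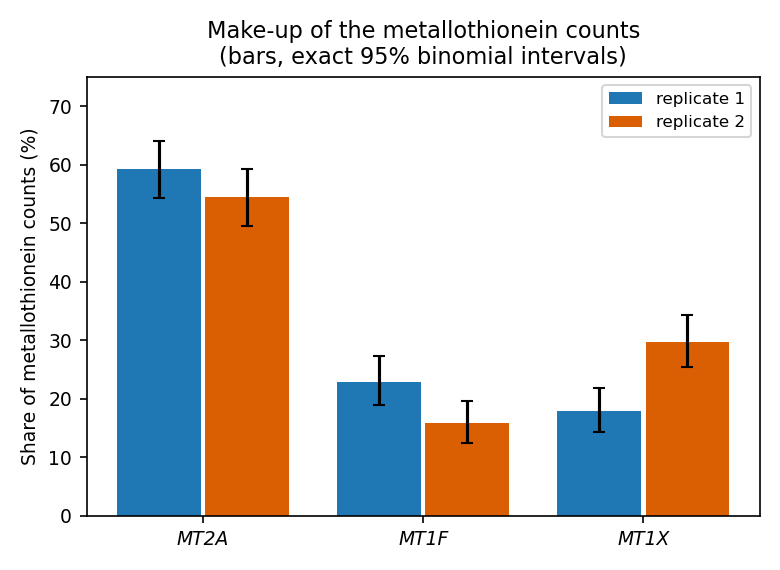
Share of all metallothionein counts (%) taken by MT2A, MT1F and MT1X in replicate 1 (blue) and replicate 2 (orange), with exact 95% binomial intervals. MT2A holds over 50% in both libraries, and MT1X has 17.8% in replicate 1 and 29.8% in replicate 2.

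The zinc transporter families were largely present. Most SLC30A transporters move zinc out of the cytosol, either out of the cell or into organelles, and the SLC39A family moves it in. Of the 10 SLC30A genes 8 were detected, with a median of 2.88 TPM, and of the 14 SLC39A genes 11, with a median of 11.2 TPM. The median of all protein-coding genes was also 2.88 TPM. In all 19 of the 24 transporter genes were detected, against 65.9% of protein-coding genes.

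Within the SLC30A family SLC30A9, of mitochondria, had 18.5 ± 3.84 TPM, and SLC30A5, of the early secretory pathway, had 18.3 ± 1.57. SLC30A1, the plasma membrane exporter, lay below both, at the 4.24 ± 2.55 TPM given above. The lowest were SLC30A2, with 0 and 4 counts, and SLC30A8, the insulin granule transporter gene, with 0 and 2. Among the importers SLC39A1 had 76.9 ± 12.8 TPM and SLC39A9, of the Golgi and plasma membrane, 73.0 ± 8.98. The value of SLC39A1 is uncertain, since other genes overlap 69.1% of its exonic bases. SLC39A12 had 0 counts in both libraries and SLC39A2 had 0 and 1.

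**Figure D4:**
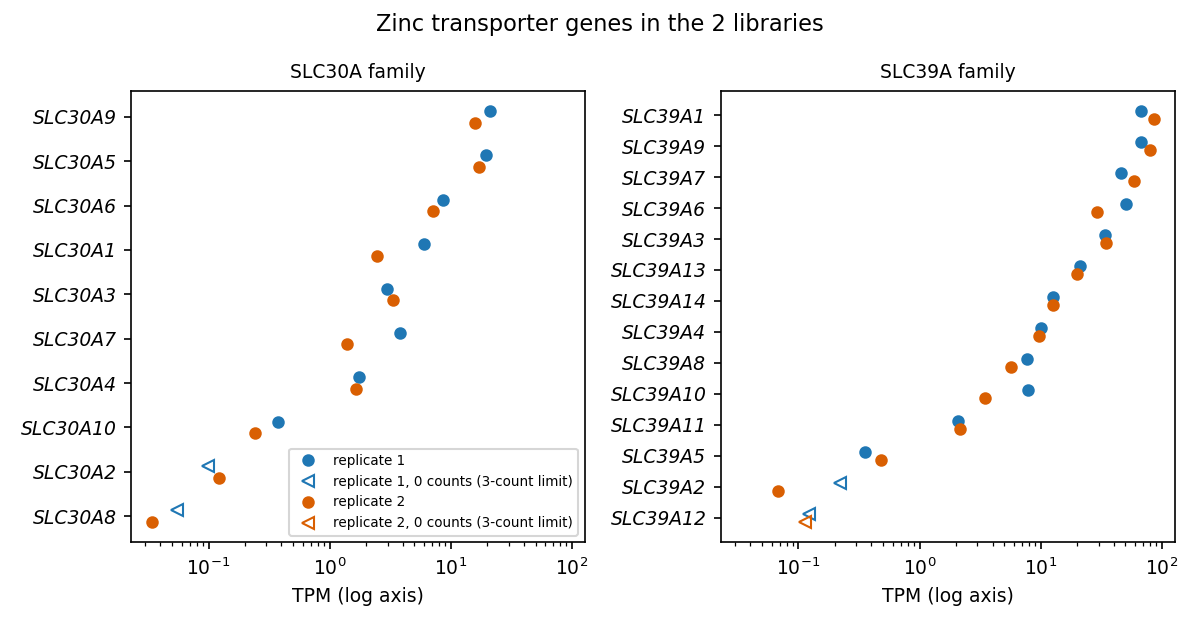
TPM (log axis) of the SLC30A (left) and SLC39A (right) genes in replicate 1 (blue) and replicate 2 (orange), ordered by mean level; open triangles are 0 counts at the 3-count limit. SLC30A1, SLC30A7 and SLC39A10 show the libraries apart, and most other detected genes show them close together.

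Besides SLC30A1, 2 other transporter genes were lower by 1 log2 or more in replicate 2, and both are named after their values were seen. SLC30A7, of the Golgi, went from 286 to 113 counts, with a ratio of -1.34. SLC39A10, a plasma membrane importer gene that MTF1 is known to repress, went from 471 to 225, with a ratio of -1.07. They make 3 of the 18 transporter genes that reached a mean count of 50, against the 1.92% of all genes, and 0 were higher by that much. The median ratio of the 18 was 0.02.

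The GC content of the transcripts moved with these ratios. The longest coding transcript of SLC30A1 is 37.98% G and C, that of SLC30A7 36.2% and that of SLC39A10 37.6%. Among the 18 transporter genes, 6 lay below 40% and held all 3, and the 12 others held 0. The lowest ratio of those 12 was -0.70, for SLC39A6 at 41.6%, a gene named after its value was seen. Over 1829 genes below 40%, the median ratio was -0.34 and 9.29% were lower by 1 log2. Over 1957 genes at 60% or above, the median was 0.09. After centring the ratios on GC content in 20 bins, SLC30A1 had -0.88, SLC30A7 -0.87 and SLC39A10 -0.75, and none of the 3 reached 1 log2. SLC39A6 had -0.55 after the same step. After centring, 0.994% of 11974 genes were lower by that much, and 0 of the 5 detected members. MT1X kept 0.67 after centring, at a GC content of 54.3%. The part of GC content in these differences was not tested further.

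**Figure D5:**
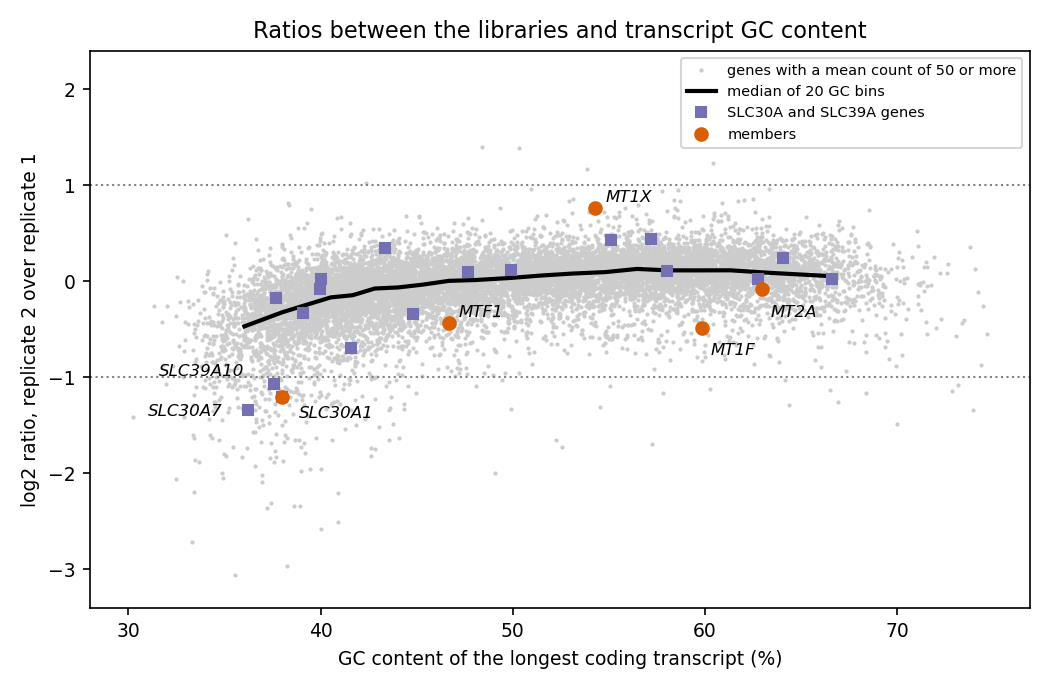
Log2 ratio of replicate 2 over replicate 1 against the GC content (%) of the longest coding transcript, for genes that reached a mean count of 50 (grey), their median in 20 GC bins (black line), zinc transporter genes (purple squares) and the 5 detected members (orange circles); dotted lines mark 1 log2 in each direction, and PEAK3 lies above the axis. SLC30A1, SLC30A7 and SLC39A10 lie at the low-GC end, where the median falls, and MT1X is the member above 0.

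Other genes reported as targets of MTF1 were all detected, 6 of 6, with a median of 5.48 TPM, where 65.9% of protein-coding genes were detected and their median was 2.88 TPM. SELENOH, a selenoprotein gene, had 184 ± 9.85 TPM and CEBPA, a transcription factor gene, 18.9 ± 0.298. PGF, the placental growth factor gene, had 4.11 ± 0.444 TPM and SLC40A1, the iron exporter ferroportin, 2.08 ± 0.331. The value of CEBPA is uncertain, since other genes overlap 43.9% of its exonic bases. Of the 6, SLC39A10 alone was lower by 1 log2 or more in replicate 2, as were 1.92% of all genes that reached a mean count of 50.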

How the data were processed

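For each library the authors deposited a table of raw read counts by Ensembl gene identifier, not normalised, per the file headers. RNA was primed with oligo(dT), and the cDNA was sheared and ligated as single strands, per the labels' protocols. Counting used featureCounts 2.0.3 on GRCh38, after bcl2fastq 2.17 and Trim Galore 0.6.7, per the submitters' processing notes. The sources used here do not give the aligner, the annotation release or the settings for strand and shared reads. In replicate 1, 519 of 811 genes nested within the exons of an opposite-strand gene had counts and 0 exceeded that gene, so genes overlapped over at least 25% of their exonic length, and MT1X, are treated as uncertain.

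Symbols matched 60463 of 60664 identifiers. GENCODE 29 on GRCh38 gave gene types (19890 protein-coding), transcripts and GC content. Upstream windows came from RefSeq on GRCh38.p14. CPM, and TPM with the deposited exon lengths, were computed from the counts. Ratios used edgeR 4.0.16 (TMM factors 1.01 and 0.989) in R 4.3.3, with DESeq2 1.42.0 size factors as an alternative. Exon overlap used bedtools 2.31.1. The chi-square per degree of freedom between the libraries was 12.7 over 21018 genes, so they were kept as separate samples. On simulated data, 100% of 200 genes changed 4-fold passed 1 log2, over 14704 genes. Of the unchanged genes 0.0345% passed it in either direction, against 1.92% lower and 0.143% higher in the real libraries. The simulation had no GC effect and a coefficient of variation below the 15.6% that edgeR fitted in common. It therefore checks the calculation and cannot show how the cut-off performs in these libraries.

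The named genes are the 10 members, the other metallothionein genes, the 2 highest and 2 lowest by mean TPM of the SLC30A, SLC39A, copper, MTF1 target and glucocorticoid lists, and the 3 nearest protein-coding genes on each side of the cluster. Members and lists were chosen with earlier results of these data known. Genes were not ranked by likeness of pattern, because 2 libraries of 1 group give each gene a single difference.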

Additional observations from a re-analysis of the deposited data

How the results depend on the processing

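The count of detected members was 5 without replicate 1, without replicate 2, at 0.5 CPM and at 1 TPM, and 2 at 5 CPM, where MT2A and SLC30A1 were left. The count of detected zinc transporters was 18 or 19 under each alternative. The share of counts was 0.00347% without replicate 1 and 0.00463% without replicate 2. The median member level was -1.43 on log2(TPM + 0.1) and ranged from -1.55 to -1.30 with either replicate left out. It was 0.60 with a pseudocount of 1, -0.58 with CPM and -1.67 with the longest protein-coding transcript, and it follows the pseudocount because 5 of the 10 genes are at 0. The median ratio stayed between -0.47 and -0.42 with DESeq2 size factors, library totals, a prior count of 0.5, a mean count of 10 or GC centring, and was 0 with no filter, where the genes at 0 enter. The count of zinc transporters lower by 1 log2 was 3 with DESeq2 size factors, library totals and a prior count of 0.5, and 0 after GC centring. GC centring and the longest protein-coding transcript were chosen after seeing the data. Of 40 alternatives for single members 6 moved by more than the spread and 0 changed direction. The spread was the SD for levels and 1/2 of the counting interval for ratios. Leaving out 1 of 2 replicates cannot move a level past its SD, and a TPM level cannot change direction. Those alternatives thus could not have failed, and the counts do not show that the results are stable. No paired analysis was possible because the labels give 1 group. At these depths genes under 3 counts cannot be told from 0.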

Other observations

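Copper handling genes, which share metallothionein as a buffer, were all detected, 10 of 10, with a median of 14.4 TPM, where 65.9% of protein-coding genes were detected and their median was 2.88 TPM. COX17, a copper chaperone for cytochrome c oxidase, had 144 ± 14.6 TPM and SCO2, of the same assembly pathway, 104 ± 12.4. The value of SCO2 is uncertain, since other genes overlap 88.2% of its exonic bases. The copper-exporting ATPase genes ATP7B and ATP7A had the lowest levels, at 1.40 ± 0.0594 and 1.07 ± 0.494 TPM. None of the 10 differed by 1 log2 or more between the libraries, where 1.92% of all genes were lower by that much.

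The glucocorticoid receptor and genes it is known to induce, listed because MT2A is also induced by glucocorticoids, were detected in 6 of 6 cases, against the same 65.9%, with a median of 4.97 TPM. TSC22D3 had 164 ± 0.937 TPM and DUSP1 17.7 ± 1.01, while PER1 had 3.39 ± 0.0677 and ZBTB16 0.140 ± 0.00209. The globin gene HBB, on the list of blood genes, had 0 counts in replicate 1 and 38 in replicate 2, while PTPRC had 0 and 1 and CD3D had 0 in both.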
